A study of Mus musculus with 6 samples.

Results

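DNA replication genes are the genes whose proteins mark replication origins, load and start the MCM helicase, copy the DNA and supply its nucleotides. The 44 genes described here were chosen by name from origin licensing, the MCM helicase, the polymerases, the clamp loader, nucleotide supply, histone deposition and cyclin E. All 44 had a row among the 23268 genes of the table, and 42 had a mean of at least 1 FPKM over the libraries, as did 12187 genes in all. They were measured in group 2 innate lymphoid cells (ILC2s), lymphocytes without antigen receptors that live in mucosal tissue and secrete type 2 cytokines, isolated by sorting from colons of C57BL/6 mice that were 6 to 8 weeks old. The control mice drank water and the DSS mice drank 3% dextran sulfate sodium, a chemical that injures the colon epithelium, in both cases for 6 days. Each group had 3 RNA sequencing libraries. No genotype or transgene is given for either group. Whether a library came from 1 mouse or from pooled mice is not stated, and the p-values therefore reflect only how these libraries vary, which may be technical variation. FPKM is the number of sequenced fragments scaled to gene length and library size. Levels can thus be roughly compared between genes, though the annotation used for the lengths is not given.

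Before S phase, the origin recognition complex (ORC) with Cdc6 and Cdt1 loads the ring of Mcm2 to Mcm7 onto DNA. Cdc45 and the GINS proteins then join the ring to form the active helicase, primase and polymerases copy the strands, and PCNA, loaded by replication factor C, tethers the polymerases. Many of these genes are known targets of E2F transcription factors, which are released from RB proteins as a cell leaves G1. In resting lymphocytes the MCM genes are known to be low and to increase when cells enter the cycle.

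Transcripts of all 6 MCM ring genes had lower means in DSS than in control ILC2s, with a median log2 change of −0.92. Gins2, a GINS subunit gene, had a larger ratio of means, 8.34-fold lower in DSS. Summed ORC transcripts had nearly equal means, and the ORC genes Orc2 and Orc5 had higher means in DSS. Pcna, the most abundant of the 44, overlapped between the groups. None of the 42 genes tested passed the test over all genes.

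The whole fragments behind the values numbered 9962415 to 23119390 per library, and a replication gene had 5 to 3455 fragments in a library. Both replicates 3 stood apart from the other libraries on the first principal component, which held 48.1% of the variance. DSS replicate 1 stood apart on the second, which held 28.5%, at −57.9 against −9.40 to 27.8 for the other libraries. The mean of 1103 olfactory receptor genes, smell receptors of the nose, was 0.583 FPKM in the control library numbered 3 and 0.962 in its DSS counterpart. Elsewhere it was 0.0342 to 0.182. The ILC2 label was checked on 11 marker and leukocyte genes, all above 1 FPKM, whose summed level was 3422 to 3706 in control and 2566 to 2778 in DSS libraries. These sums did not overlap. Of the 11 genes 1, the cytokine gene Il5, passed limma as lower in DSS, against 0.222% of all genes in either direction. Every DSS value lay below every control value for 5 of the 11, against 9.6% of all genes. Areg (means 1071 and 1045) and Ptprc (71.3 and 70.8) had nearly equal means, and Il17rb and Il7r had higher means in DSS.

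A log2 change is the DSS mean minus the control mean of log2(FPKM + 1), and the added 1 makes it too small for genes of low level. It is given ± SE, from limma, and adjusted p-values are over the 12187 genes tested. By limma at an adjusted p under 0.05, 0 of 42 replication genes passed, where 0.222% of all genes did, and voom on the fragments also called 0, against 0.148% of all genes. At an unadjusted p under 0.05, 11 of 42 replication genes (26.2%) were reached, against 8.99% of all genes. The value was lower in DSS for 10 of the 11, against 5.42% of all genes, and higher for 1, against 3.57%. With voom, 12 reached it, against 9.71% of all genes. The limma count of 11 depended on the libraries. It was 5 of 42 (11.9%) without control replicate 1, against 4.85% of all genes in the same fit. It was 7 (16.7%) without control replicate 2, against 4.7%, and 7 without control replicate 3, against 7.35%. Without DSS replicate 1 it was 8 of 42 (19.0%), against 16.3% of all genes. Without DSS replicate 2 it was 9 of 42, against 8.23%, and without DSS replicate 3 it was 14, against 15.9%. With all libraries and median-of-ratios scaling it was also 14 of 42, against 8.58%. The lower mean was in DSS for 32 of 42, against 46.9% of all genes, and the median log2 change was −0.34, against 0.03 for all genes. Every DSS value lay below every control value for 12 of the 42 (28.6%), against 9.6% of all genes. The reverse held for 1, against 6.35%. Without DSS replicate 3 the count of 12 became 20, against 21.8% of all genes, and with both replicates 3 left out it was 21 of 40, against 25.8%. In bulk RNA, fewer cells in S phase and less RNA per cell cannot be told apart.

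**Figure D1:**
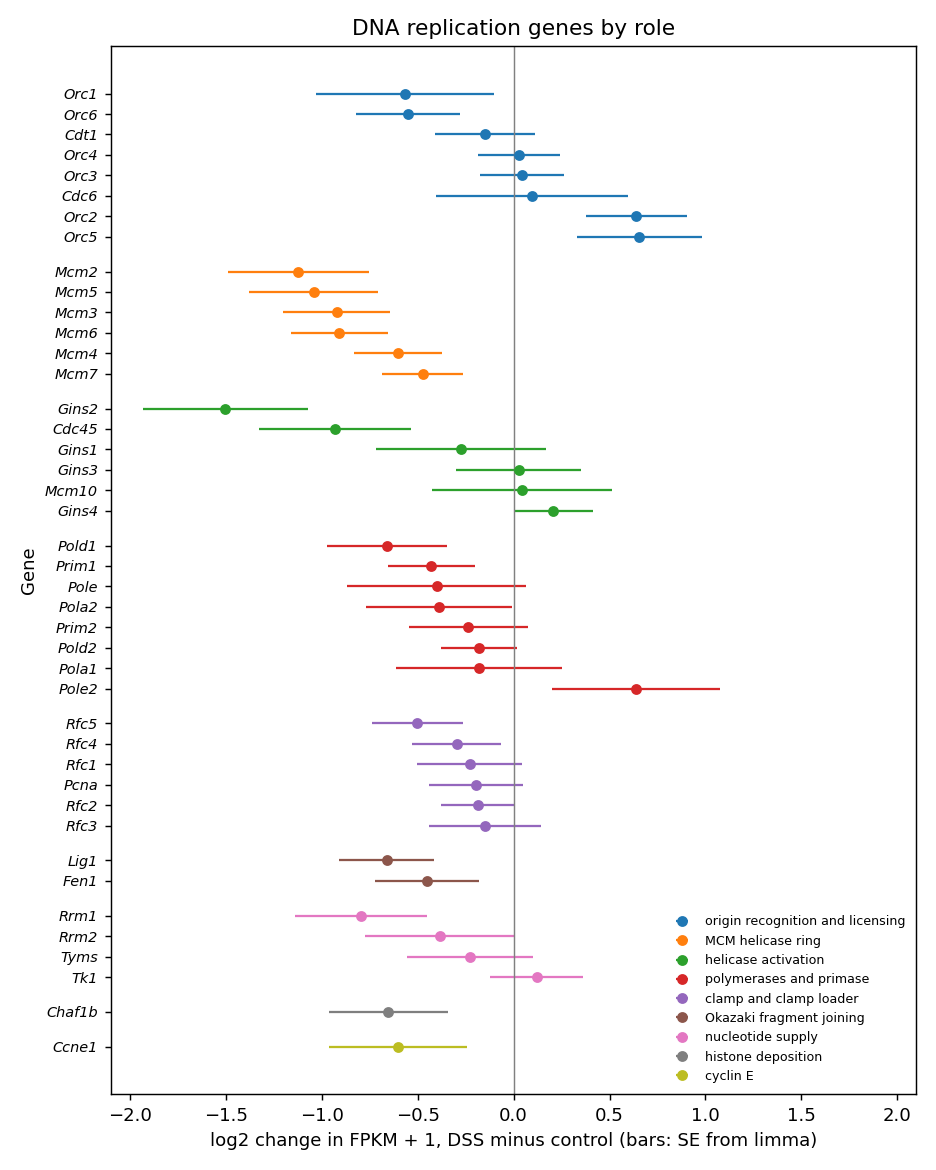
Log2 change (DSS minus control, FPKM + 1) on the horizontal axis for each of the 42 replication genes with a mean of at least 1 FPKM, grouped by role. Points are limma estimates and bars their SE; the 6 MCM ring genes lie between −1.12 and −0.47, and the origin recognition and licensing genes lie on both sides of 0.

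The MCM ring is the motor of the replicative helicase, built from 1 copy of each of 6 related subunits. Mcm6 lies at chr1:128331590-128359664, Mcm3 at chr1:20802968-20820312, Mcm2 at chr6:88883474-88898780, Mcm4 at chr16:15623897-15637400, Mcm5 at chr8:75109569-75128439 and Mcm7 at chr5:138164583-138172422 (mm10). Of the 44 genes, 36 had a promoter in RefSeq's GRCm38.p6 set, as 250 bases before and 50 after the start site. Each was searched on both strands for the E2F site written as TTTCCCGC, TTTCGCGC, TTTGCCGC or TTTGGCGC. A match was present for 14 of the 36, and for 704 of 27025 genes of the set, or 2.6%. Among the genes of the set that were tested here it was present for 441 of 9381, or 4.7%. Among the ring genes, 4 of the 5 with a promoter had a match. The stretches below are shown because these ring genes all had lower means in DSS and differ in their matches; capitals mark the matches, and positions count from the start site.
Mcm6: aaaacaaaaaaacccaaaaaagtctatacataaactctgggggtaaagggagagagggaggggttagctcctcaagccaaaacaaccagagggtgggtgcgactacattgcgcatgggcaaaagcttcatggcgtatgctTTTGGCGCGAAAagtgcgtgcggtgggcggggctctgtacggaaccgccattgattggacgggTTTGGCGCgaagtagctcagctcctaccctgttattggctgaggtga
Mcm5: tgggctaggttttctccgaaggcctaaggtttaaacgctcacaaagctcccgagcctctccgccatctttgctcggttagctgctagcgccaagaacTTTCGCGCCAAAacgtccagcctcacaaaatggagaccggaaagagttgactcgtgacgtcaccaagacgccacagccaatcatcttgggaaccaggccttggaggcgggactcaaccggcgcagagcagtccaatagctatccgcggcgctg
Mcm7: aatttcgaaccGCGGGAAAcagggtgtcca
Mcm3: GCGGGAAAacttgggaagtTTTGGCGC
Mcm2: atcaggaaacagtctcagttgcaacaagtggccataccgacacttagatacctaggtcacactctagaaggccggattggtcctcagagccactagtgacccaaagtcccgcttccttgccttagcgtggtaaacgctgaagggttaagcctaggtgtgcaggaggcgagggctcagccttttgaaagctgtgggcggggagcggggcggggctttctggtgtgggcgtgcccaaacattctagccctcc
The stretches of Mcm6 (chr1:128359706-128359955, minus strand), Mcm5 (chr8:75109259-75109508, plus strand) and Mcm2 (chr6:88898781-88899030, minus strand) are the 250 bases before the start. In Mcm5, and at the first site of Mcm6, matches on the 2 strands overlap and form a run of 12 capitals. The Mcm7 stretch (chr5:138172030-138172059, minus strand) holds the match at −165 and lies within annotated exons of both Mcm7 and Ap4m1. Mcm7 has a further match, TTTCGCGC at 17 after the start, which is not shown. The Mcm3 stretch (chr1:20820267-20820293, minus strand) holds 2 matches, at 20 and 39 after the start. No match was found for Mcm2, and Mcm4 was not matched to a promoter. A match is a description of the letters, and binding was not measured here.

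The level of each ring gene was as follows. Mcm6 measured 15.8, 8.96 and 11.7 FPKM in control replicates 1, 2 and 3, and 5.04, 5.75 and 6.89 in DSS replicates 1, 2 and 3. All 3 DSS values were below the lowest control value, and the means differed 2.06-fold (log2 change −0.91 ± 0.25, limma adjusted p = 0.226). Mcm3 measured 17.9, 13.8 and 12.4 in controls, and 4.70, 7.97 and 9.78 in DSS. The groups did not overlap, and the means differed 1.97-fold (−0.92 ± 0.28, limma adjusted p = 0.288).

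Mcm2 measured 10.8, 8.50 and 10.3 in controls, and 1.84, 4.05 and 7.61 in DSS. Its groups did not overlap either, but the DSS values were widely spread. They rest on 93, 262 and 259 fragments in DSS replicates 1, 2 and 3, which are libraries of different depth. The log2 change of −1.12 ± 0.37 was the largest in the ring, with a limma adjusted p of 0.339, and it was −0.72 without DSS replicate 1. Mcm5 measured 16.9, 13.1 and 20.9 in controls, and 5.82, 5.33 and 13.6 in DSS. It was the only ring gene whose groups overlapped, since DSS replicate 3 exceeded control replicate 2 (−1.04 ± 0.34, limma adjusted p = 0.334).

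Mcm4 and Mcm7 had the smallest differences of the ring. Mcm4 measured 7.39, 7.05 and 6.97 in controls and 3.42, 4.92 and 4.88 in DSS (−0.60 ± 0.23, limma adjusted p = 0.439). Mcm7, whose introns carry a cluster of microRNAs, measured 15.6, 13.3 and 13.03 in controls and 8.33, 10.4 and 10.8 in DSS (−0.47 ± 0.21, limma adjusted p = 0.547). For both genes the 3 DSS values lay below the 3 control values. Mcm7 shares 321 exon bases with Ap4m1 and 64 with Cops6 on the opposite strand, which these unstranded libraries cannot separate. Ap4m1 itself was at 1.72 ± 0.526 and 2.02 ± 1.38 FPKM, and Cops6 at 30.9 ± 1.47 and 30.5 ± 0.870.

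**Figure D2:**
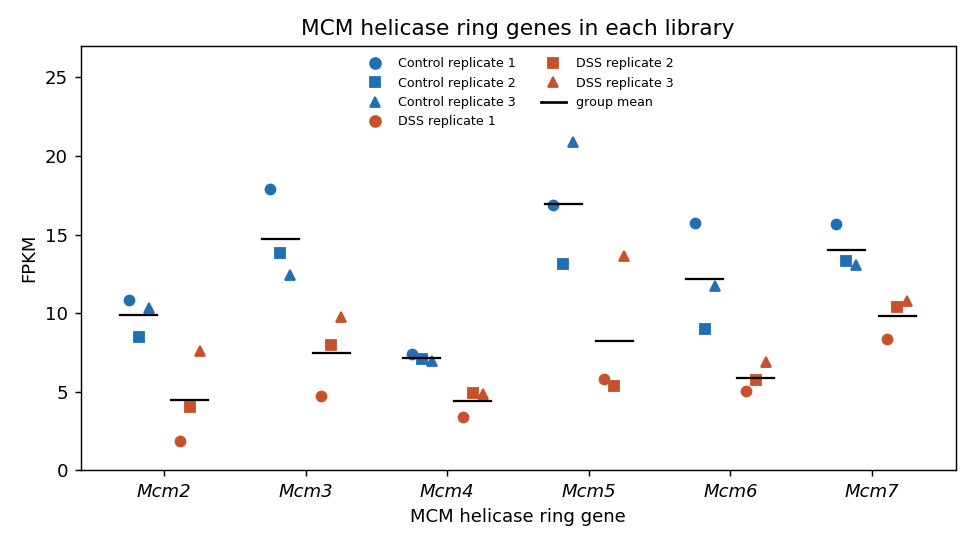
FPKM of the 6 MCM ring genes (horizontal axis) in each library, with marker shape for the replicate number and a black bar for the group mean of 3. DSS values lie below all control values for every ring gene other than Mcm5, and DSS replicate 3 is often the highest DSS point.

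The ring genes differed between DSS libraries in the same order for most subunits. DSS replicate 1 was the lowest DSS library for 5 of 6 and DSS replicate 3 the highest for 5 of 6. Their summed level was 84.4, 64.8 and 75.3 FPKM in controls and 29.2, 38.4 and 53.5 in DSS. The sums rest on 1513 to 6933 fragments per library. The DSS sums were all below the control sums, with means of 74.8 ± 9.82 and 40.4 ± 12.3 (SD, n = 3 each), 1.85-fold apart. The makeup of the sum also differed. Mcm7 contributed 18.8% ± 1.67 of the ring sum in control and 25.2% ± 4.51 in DSS libraries (SD, n = 3 each), and its share in DSS replicate 3 (20.1%) lay within the control range of 17.3% to 20.6%. Mcm2 contributed 13.2% ± 0.446 and 10.4% ± 3.95, with 6.31% in DSS replicate 1 and 14.2% in DSS replicate 3. The highest and lowest ring subunits differed 1.96-fold to 2.99-fold within a control library, and 2.56-fold to 4.53-fold within a DSS library.

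Without DSS replicate 1, the median log2 change of the ring was −0.69, against 0.13 for all genes then tested. With both replicates 3 left out, the ring median was −1.12, against −0.08 for all genes then tested. The unadjusted limma p was above 0.05 for Mcm4 (0.0621) and Mcm7 (0.0843) in that fit. It was below 0.05 for the other 4 ring genes, against 10.1% of all genes in the same fit. With the replicate number as a block, the ring genes had limma adjusted p-values of 0.158 (Mcm5) to 0.441 (Mcm7). Over all settings the log2 change stayed below 0 for each ring gene, from −1.52 to −0.72 for Mcm2 and from −1.09 to −0.72 for Mcm6.

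Origin recognition and licensing genes went both ways. Of these 8 genes 3 had the lower mean in DSS and 5 the higher, with a median log2 change of 0.04. Orc2, a core ORC subunit gene, measured 3.31, 2.76 and 2.96 FPKM in controls and 6.14, 3.89 and 5.95 in DSS. It was the only 1 of the 42 genes with all DSS values above all control values (0.64 ± 0.26, limma adjusted p = 0.483). Orc2 shares 1150 exon bases with Nif3l1 on the opposite strand, which measured 6.49 ± 0.874 and 7.77 ± 1.197. Orc5, which encodes another core subunit, measured 2.59, 3.20 and 5.05 in controls and 8.25, 3.76 and 7.06 in DSS. DSS replicate 2 of Orc5 lay within the control range (0.66 ± 0.32, limma adjusted p = 0.616), and 90 of its exon bases are shared with the pseudogene Gm15421.

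The remaining ORC genes had lower or nearly equal means in DSS. Orc6, the smallest and least conserved subunit, measured 11.1, 15.9 and 15.1 in controls and 8.96, 6.61 and 12.8 in DSS (−0.55 ± 0.27, limma adjusted p = 0.605), and the log2 change was −0.34 without DSS replicate 2. Orc1, the subunit whose protein level is regulated through the cell cycle, measured 2.83 ± 0.465 and 1.92 ± 1.67, with 0.311 in DSS replicate 2 and 3.65 in DSS replicate 3. Orc3 (10.1 ± 1.74 and 10.4 ± 1.10) and Orc4 (14.0 ± 1.16 and 14.4 ± 2.39) had nearly equal means and overlapping groups. The 6 ORC genes together summed to 47.6 ± 4.19 in control and 47.9 ± 7.07 in DSS libraries. The ring sum was 1.904, 1.40 and 1.44 times the ORC sum in controls, and 0.548, 0.962 and 1.06 times in DSS, so this ratio did not overlap between the groups.

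The loading factors Cdc6 and Cdt1 overlapped between the groups. Cdt1, which brings the ring to ORC, measured 20.4, 24.9 and 27.8 in controls and 14.8, 26.3 and 26.1 in DSS (−0.15 ± 0.26, limma adjusted p = 0.913). Cdc6, an ATPase of the loader, was low, at 1.297 ± 0.807 and 1.500 ± 1.13, with its highest values in the 2 replicates 3, 2.09 and 2.80.

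**Figure D3:**
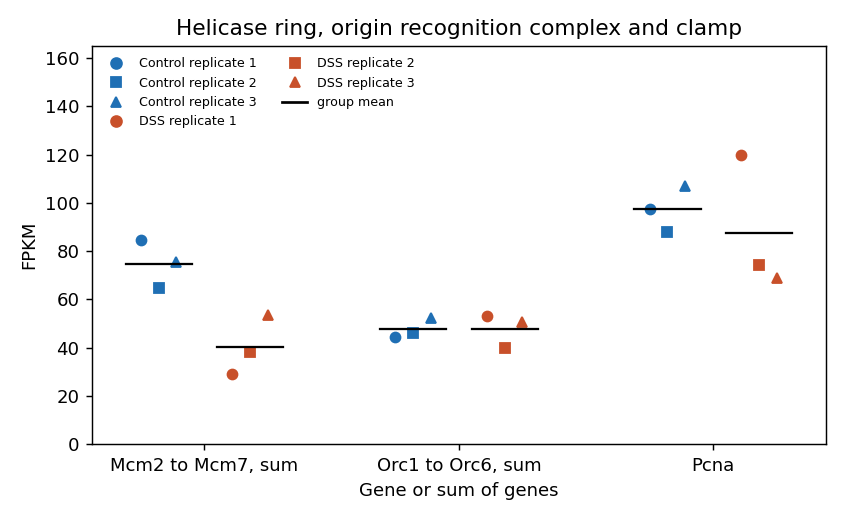
FPKM in each library for the sum of Mcm2 to Mcm7, the sum of Orc1 to Orc6, and Pcna; colours give the group, shapes the replicate, black bars the mean of 3. The ring sums separate (64.8 and above in controls, 53.5 and below in DSS), while the ORC sums and Pcna overlap.

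Helicase activation genes were divided. Gins2, which encodes the GINS subunit Psf2, measured 3.34, 3.59 and 1.78 FPKM in controls and 0.239, 0.374 and 0.432 in DSS. These rest on 305, 248 and 89 fragments in controls and 14, 28 and 17 in DSS. All DSS values were below the lowest control value, and the means were 2.90 ± 0.981 and 0.348 ± 0.0986. The log2 change of −1.502 ± 0.43 (limma adjusted p = 0.250) was the largest in size of the 42, and was −2.71 with a pseudocount of 0.1 and −3.10 with voom. Gins2 shares 2758 of its 4097 exon bases with Gse1 on the opposite strand, and Gse1 measured 15.2 ± 0.387 and 13.7 ± 0.615.

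Cdc45, which joins GINS and the ring, measured 4.67, 3.60 and 6.88 in controls and 1.15, 1.51 and 4.48 in DSS. DSS replicate 3 lay within the control range and the other DSS libraries below it (−0.93 ± 0.40, limma adjusted p = 0.512), and the log2 change was −1.43 with voom. Cdc45 shares 209 exon bases with Ufd1 on the opposite strand, which measured 22.9 ± 5.90 and 23.3 ± 2.39. The other GINS genes overlapped between the groups. Gins1 measured 2.25 ± 0.354 and 1.94 ± 1.40, Gins3 3.02 ± 0.459 and 3.25 ± 1.45, and Gins4 17.7 ± 1.50 and 20.7 ± 3.21. On the FPKM scale the Gins4 mean was 6.08 times the Gins2 mean in controls and 59.3 times in DSS. The ratio was 5.11, 5.40 and 9.29 in the control libraries and 98.1, 57.0 and 39.8 in the DSS libraries. Mcm10, which helps to activate the assembled helicase, was near 1 FPKM (1.23 ± 0.385 and 1.40 ± 0.985) and highest in DSS replicate 3.

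Polymerase and primase genes had lower means in DSS for 7 of 8, with a median log2 change of −0.31 and no unadjusted limma p under 0.05. Pold1, the catalytic subunit gene of lagging-strand polymerase delta, measured 11.2, 15.0 and 14.9 in controls and 4.65, 9.82 and 11.9 in DSS (−0.66 ± 0.31, limma adjusted p = 0.590). DSS replicate 3 of Pold1 lay above control replicate 1, and the log2 change was −0.31 without DSS replicate 1. Prim1, the catalytic primase subunit gene, measured 8.97, 7.84 and 6.23 in controls and 5.61, 4.78 and 5.86 in DSS, with no overlap (−0.43 ± 0.23, limma adjusted p = 0.649). Pold2, an accessory polymerase delta subunit gene, was steadier at 23.3 ± 3.04 and 20.4 ± 1.49. Pole, the catalytic subunit gene of leading-strand polymerase epsilon, was low (2.59 ± 0.616 and 2.098 ± 2.11) and ranged in DSS from 0.792 in replicate 2 to 4.53 in replicate 3. Its accessory subunit gene Pole2 was the member of this group with the higher mean in DSS, at 1.93 ± 1.52 and 3.33 ± 1.28. The polymerase alpha genes Pola1 (1.88 ± 1.05 and 1.47 ± 0.554) and Pola2 (10.1 ± 3.31 and 7.94 ± 4.47) and the second primase gene Prim2 (3.55 ± 0.604 and 2.95 ± 1.07) overlapped.

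The clamp and its loader had small differences. Pcna, the sliding clamp gene, measured 97.3, 88.1 and 107 FPKM in controls and 119.8, 74.2 and 68.7 in DSS. Its highest and its lowest value of the 6 were both in DSS libraries (−0.19 ± 0.24, limma adjusted p = 0.880). DSS replicate 1 was therefore the library with the lowest ring sum and the highest Pcna, and the ring sum was 0.243 times Pcna there against 0.517 and 0.780 in the other DSS libraries. In controls that ratio was 0.867, 0.735 and 0.704. Rfc5, a small clamp loader subunit gene, measured 5.97, 4.74 and 5.32 in controls and 3.08, 3.58 and 3.77 in DSS, with no overlap (−0.50 ± 0.24, limma adjusted p = 0.587). It shares 499 exon bases with Wsb2 (12.0 ± 1.96 and 10.3 ± 3.92). Rfc4 measured 13.5, 9.74 and 16.2 in controls and 11.2, 10.1 and 9.68 in DSS (−0.30 ± 0.23, limma adjusted p = 0.798). The log2 change of Rfc4 was −0.48 without control replicate 2, −0.14 without control replicate 3 and −0.10 with both replicates 3 left out. Rfc2 did not overlap but differed little (14.8 ± 1.07 and 12.9 ± 0.195), and Rfc1 and Rfc3 overlapped.

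Okazaki fragments, the short pieces of the lagging strand, are trimmed by FEN1 and joined by DNA ligase 1. Lig1 measured 18.7, 14.1 and 15.5 in controls and 7.05, 10.6 and 12.3 in DSS, with no overlap (−0.66 ± 0.25, limma adjusted p = 0.424). Fen1 measured 11.9, 9.43 and 14.5 in controls and 5.76, 9.41 and 10.6 in DSS (−0.45 ± 0.27, limma adjusted p = 0.703), and the log2 change was −0.22 without DSS replicate 1. Fen1 shares 1909 exon bases with an antisense gene and 130 with Tmem258, which was at 71.5 ± 7.98 and 95.6 ± 51.5. Lig1 shares 247 with Zswim9, which was at 0.545 ± 0.469 and 0.729 ± 0.694.

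Nucleotide supply genes were uneven. Rrm1, the large subunit gene of ribonucleotide reductase, measured 9.40, 15.4 and 11.4 in controls and 3.30, 9.39 and 7.98 in DSS. The lowest control value and the highest DSS value were nearly equal, so the groups only just failed to overlap (−0.80 ± 0.34, limma adjusted p = 0.528), and the log2 change was −0.41 without DSS replicate 1. Rrm2, the small subunit gene that is known to be limited to S phase, measured 6.94, 4.65 and 7.22 in controls and 1.89, 7.62 and 5.64 in DSS. Its log2 change of −0.39 ± 0.39 (limma adjusted p = 0.845) rested on DSS replicate 1 and was 0.08 without it. Tyms (7.29 ± 2.23 and 6.26 ± 2.59) and Tk1 (4.44 ± 0.954 and 4.86 ± 0.368), which make and salvage thymidine nucleotides, overlapped.

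Of the chromatin assembly factor genes, which place histones on new DNA, Chaf1b measured 5.34, 3.09 and 5.46 in controls and 1.67, 3.09 and 2.94 in DSS (−0.65 ± 0.31, limma adjusted p = 0.589). Chaf1a was under the filter, at 0.656, 0.513 and 1.29 in controls and 0.0433, 0.203 and 1.52 in DSS. Ccne1 encodes cyclin E1, the partner of CDK2 at the start of S phase, and measured 6.29, 2.57 and 2.53 in controls and 2.30, 2.14 and 1.53 in DSS. Its groups did not overlap, but control replicate 1 set most of the difference in means (−0.60 ± 0.36, limma adjusted p = 0.706, and −0.26 without that library). Ccne2 was also under the filter, at 0.225 to 0.341 in controls and 0.155 to 0.988 in DSS, on 7 to 30 fragments.

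The genes were also described by level. Of the 24 replication genes with a mean of at least 5 FPKM, 21 had the lower mean in DSS, with a median of −0.41, against −0.08 for all genes at that level. Of the 18 with a mean of 1 to 5 FPKM, 11 had the lower mean in DSS, with a median of −0.21, against 0.18 for all such genes. DSS replicate 3 was the highest of the 6 libraries for 6 of these 18 and for 1 of the 24. Over all genes at those levels it was the highest for 63.8% and 23.7%. Over the 42 genes the lowest DSS value was in replicate 1 for 21, in replicate 2 for 15 and in replicate 3 for 6.

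Changes were then set beside the promoter matches. The median log2 change was −0.33 for the 14 tested replication genes with an E2F match and −0.39 for the 21 without. Of the genes with a match, 4 had no overlap with DSS below control, and of those without 5 did. Over all genes with a promoter and a test, the medians were −0.10 for 441 with a match and 0.03 for 8940 without, and DSS lay below control with no overlap for 12.9% and 9.36% of them.

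Other genes of the pathway were set beside these from 3 lists. Of 56 further replication genes tested, 34 had the lower mean in DSS, the median was −0.07, and limma and voom each called 0. By limma 2 had an unadjusted p under 0.05, against 8.99% of all genes. Samhd1, which encodes an enzyme that degrades the deoxynucleotides of DNA synthesis, measured 141, 114 and 99.2 in controls and 236, 256 and 254 in DSS. The groups were far apart (1.09 ± 0.20, limma adjusted p = 0.0987), in the direction opposite to that of Rrm1. Tipin, a fork protection gene, measured 15.4, 8.42 and 12.7 in controls and 5.07, 5.04 and 6.83 in DSS (−0.96 ± 0.26, limma adjusted p = 0.220). Uhrf1, which encodes a factor that maintains DNA methylation at forks, measured 7.35 ± 3.09 and 3.82 ± 3.49. Dut, a dUTPase gene, measured 19.5 ± 2.67 and 13.7 ± 6.64.

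Of 29 genes of E2F, RB and G1/S control, 20 had the lower mean in DSS, with a median of −0.27. Limma and voom each called 0 of them, and by limma 9 had an unadjusted p under 0.05, against 8.99% of all genes. Of the 9, 6 were lower, against 5.42% of all genes, and 3 higher, against 3.57%. Cdkn2d, the gene of the CDK4 and CDK6 inhibitor p19, measured 24.6 ± 2.13 and 46.8 ± 11.7 (0.88 ± 0.22, limma adjusted p = 0.191). Lin54, a DNA-binding subunit gene of the MuvB complex that joins E2F and RB proteins, measured 8.53 ± 1.85 and 4.28 ± 0.822. Mycn measured 22.97 ± 2.77 and 13.4 ± 4.19, and E2f5, a repressor E2F gene, 5.31 ± 0.488 and 8.76 ± 0.590. For these 4 genes, named for the smallest p in the list, the groups did not overlap. Of all 29, every DSS value lay below every control value for 8, against 9.6% of all genes. The reverse held for 3, against 6.35%.

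Of 18 mitosis and G2/M genes tested, 7 had the lower mean in DSS, with a median of 0.05, and limma and voom each called 0, with 1 at an unadjusted limma p under 0.05, against 8.99% of all genes. Ube2c, an APC/C ubiquitin-conjugating enzyme gene, measured 3.20, 2.65 and 1.92 in controls and 14.1, 4.21 and 4.61 in DSS (1.10 ± 0.40, limma adjusted p = 0.415). Top2a, the topoisomerase gene of S and G2 cells, measured 6.38 ± 1.07 and 3.87 ± 1.66, with no overlap. Mki67, the Ki-67 proliferation marker gene, measured 3.96 ± 0.668 and 2.83 ± 0.759 and overlapped, as did Nusap1 (1.10 ± 0.424 and 2.22 ± 1.24). Whether these lists differ from the ring was not tested.

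**Figure D4:**
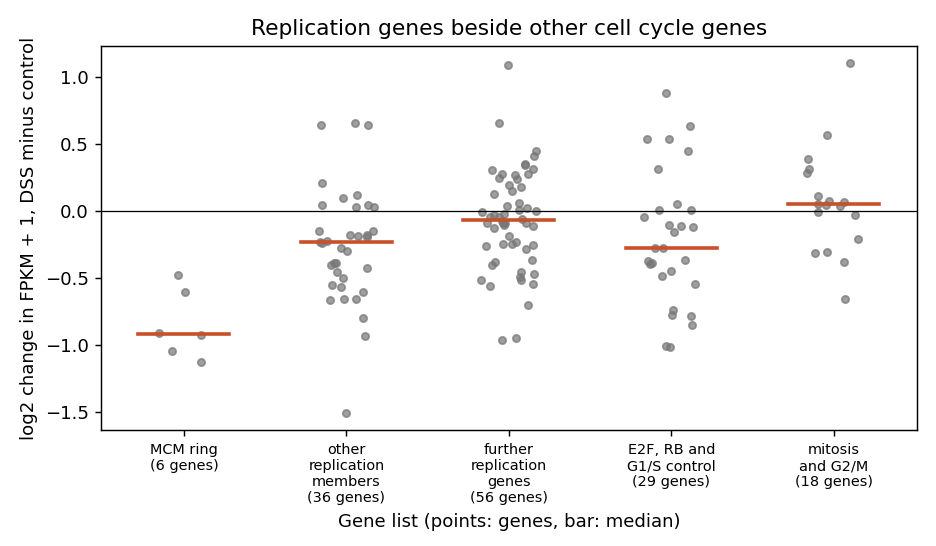
Log2 change (DSS minus control, FPKM + 1) of each tested gene in 5 lists, with the median as a bar. The medians are −0.92 for the 6 ring genes, −0.23 for the other 36 replication genes, −0.07, −0.27 and 0.05 for the further replication, G1/S control and mitosis lists.

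Markers of other cell types also differed between the groups. The summed level of 10 neutrophil genes was 2.44 to 8.32 FPKM in control and 66.3 to 108 in DSS libraries. Of the 5 with a mean of at least 1 FPKM, 3 passed limma, all higher, against 0.222% of all genes in either direction. These were S100a8, S100a9 and Retnlg. Among those under 1 FPKM, Cxcr2 (means 0.333 and 0.353) and Ltf (0.360 and 0.337) had nearly equal means. Camp (0.274 and 0.435) and Elane (0.317 and 1.38) had higher means in DSS. The sum of 11 macrophage and monocyte genes was 14.0 to 19.1 and 40.9 to 52.1, and that of 10 epithelial genes 12.7 to 21.3 and 29.6 to 34.2. For 8 B and plasma cell genes it was 26.7 to 40.9 and 51.6 to 291, highest in DSS replicate 1. The T cell (21.8 to 62.6 in DSS), ILC3, ILC1 and NK, and erythroid sums overlapped between the groups, as did the stromal sum. The ILC3 sum of 6 genes was 235 to 342 in control and 83.2 to 337 in DSS libraries. Of these genes, 3 had the lower mean in DSS and 3 the higher. For 1 of them, Il17f (55.3 ± 9.63 and 17.2 ± 10.8), every DSS value lay below every control value, against 9.6% of all genes. No marker was at 0 in all 6 libraries, but the neutrophil gene Ly6g (0.168 ± 0.218 and 0.0701 ± 0.121) was near 0. The part of these cells in the replication gene values was not tested.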

How the data were processed

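Libraries were prepared from TRIzol RNA with a SMART-Seq HT kit and a Nextera XT kit, per the labels' protocols; these kits do not mark strand. Cutadapt 1.9, HISAT2 2.2.1 and the mm10 genome were used, per the submitters' processing notes. How fragments were counted, and over which annotation, is not given in the sources used here. FPKM values were deposited by the authors by gene symbol, with 1 column per library. Whole fragments were recovered from the common step of each gene's FPKM values (tolerance 0.001) for 13957 of 13957 genes above 0 in every library.

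Groups were compared by limma 3.58.1 under R 4.3.3 (trend, two-sided) on log2(FPKM + 1) for the 12187 genes with a mean of at least 1 FPKM, with Benjamini-Hochberg adjustment over all of them and a threshold of 0.05. Scripts were tested on simulated data. Alternatives were a pseudocount of 0.1, no filter, a mean of at least 5 FPKM, median-of-ratios scaling, a replicate block, leaving out each library or both replicates 3, and, added after the data were seen, voom on the fragments. Same-numbered libraries deviated together from their group means (correlations 0.189, 0.262 and 0.545), so pairing by number is possible. This rests on the data, since the labels state no pairing. Control replicate 1 with DSS replicate 2 (0.345) and control replicate 2 with DSS replicate 1 (0.101) were also positive. For replicates 1 and 2 the correlations cannot decide on pairs, since deviations within a group of 3 sum to 0 and the replicates 3 stood apart. The results and p-values given are nevertheless from the unpaired fit, with the replicate block as an alternative, unless the block is named.

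The genes and lists were chosen with earlier results of these data known. Per-library values are given for the ring, for the 2 genes of each other role with the smallest p, and for Orc5, Cdt1 and Pcna, chosen after their values were seen; of the 3 further lists up to 4 genes with the smallest p are named. Coordinates and overlaps are from GENCODE M21 (mm10, 1-based), where 16 of the 44 genes share exon bases with a gene on the opposite strand. Library pairs differed far beyond sampling noise. Tables and figures were made with pandas 2.3.3 and matplotlib 3.10.9 in Python 3.11.15.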

Additional observations from a re-analysis of the deposited data

How the results depend on the processing

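No setting called any replication gene it tested, so the count of 0 was the same under the 13 alternatives, the replicate block among them (22 genes called in all with the block, against 27). The median log2 change of the replication genes (−0.34) and of the ring (−0.92) kept its sign in each alternative. Without 1 library the count of genes called in all ran from 5 to 435, the latter without DSS replicate 1. It was 13 after median-of-ratios scaling and 8 with both replicates 3 left out. The count of 12 replication genes with every DSS value below every control value ran from 12 to 20 without 1 library. The share of all genes in those fits was 11.5% to 21.8%. With both replicates 3 left out it was 21 of 40, against 25.8% of all genes. Fewer libraries make separation easier. With all 6 libraries it was 15 of 42 after median-of-ratios scaling, against 8.84% of all genes. At a mean of at least 5 FPKM it was 9 of 24, against 15.3%. Of 254 alternative values for the 20 genes tested in full, 253 kept their direction and side of the threshold, and the log2 change of Rrm2 (−0.39) ran from −0.712 to 0.0775 without 1 library, the latter without DSS replicate 1. Depth limits the low genes most: Gins2 and Chaf1a rest on 14 and 5 fragments in DSS replicate 1.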
